A study of Homo sapiens with 9 samples.

Results

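The BCL2 family decides whether a cell commits to the mitochondrial route of apoptosis, and 10 of its transcripts were followed here in undifferentiated Caco-2 (uCaco-2) cells, a proliferating human colon adenocarcinoma line. The members were taken by symbol from the deposited table, and all 10 of BCL2, BCL2L1, MCL1, BAX, BAK1, BBC3, PMAIP1, BID, BCL2L11 and BIK were found among its 60591 symbols. All 10 also passed the filter on low counts that left 15944 genes for testing. Control cells received fresh medium, CoCl2 cells medium with 300 μM CoCl2 and OD cells medium with 5 μM of the oxyquinoline derivative 4896-3212 (OD), each with 0.5% DMSO for 24 h and in 3 biological replicates. CoCl2 and OD are used as chemical inducers of the hypoxia response, and the comparisons ask how the cells respond to each and where the responses differ. All groups are the same cancer line, which limits them as a model of normal gut epithelium.

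In this family, BCL2, BCL2L1 (BCL-XL) and MCL1 hold the others in check and keep cells alive. BAX and BAK1 are the effectors, which assemble into pores in the outer mitochondrial membrane and let cytochrome c out. The BH3-only proteins BBC3 (PUMA), PMAIP1 (NOXA), BID, BCL2L11 (BIM) and BIK relay stress signals by occupying the groove of the protective members or by activating the effectors directly. PMAIP1 is known to bind MCL1 by preference, whereas BBC3 and BCL2L11 bind all the protective members. Much of the family's control lies in the stability, cleavage and binding of the proteins, which transcript counts do not show.

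The control libraries held 15998136 to 18298190 counts, the CoCl2 libraries 16286502 to 24209427 and the OD libraries 16387054 to 19623776. Levels are given in CPM, read counts scaled to a common library size with the TMM factors of edgeR, which correct for shifts in composition. These factors were 0.770 to 0.795 with CoCl2 and 1.11 to 1.15 in the other 6 libraries, and the top 50 genes held 21.7% to 22.3% of a CoCl2 library and 15.7% to 16.2% of any other. When library size alone was used for scaling, the log2 fold change of CoCl2 against control at the median gene moved from -0.049 to -0.55. Mitochondrially encoded genes took 5.98% to 6.21% of the counts in control, 6.91% to 7.19% in CoCl2 and 4.88% to 5.01% in OD libraries, and their part in the results was not tested. Of 10 epithelial markers, 9 passed the filter and CDX1 had no count in any library. Their summed level was 10810 to 11340 CPM per control library, 12910 to 13840 per CoCl2 library and 10140 to 10700 per OD library. KRT8 and KRT18 made up most of this sum. With CoCl2 VIL1 fell from 612.7 to 112.2 CPM (log2 fold change -2.45) and KRT20 fell from 4.49 to 1.74 CPM (-1.44). LGALS4 had a log2 fold change of 1.66 with CoCl2 (SE 0.67, edgeR adjusted p = 0.036). Its CoCl2 libraries, with 0.373, 2.55 and 0.629 CPM, overlapped the control libraries, with 0.484, 0.245 and 0.280. It had only 5 to 9 counts per control library and 6 to 33 per CoCl2 library. Markers of immune, stromal and endothelial cells summed to 58.4 to 67.3 CPM in control, 73.3 to 74.3 in CoCl2 and 66.5 to 72.4 in OD libraries, with 6 of 12 below the filter. Among them PTPRC and ACTA2 had no count in control cells. The part of these markers in the results was not tested.

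With CoCl2, 4 members rose and 2 fell against control cells. Calls required a log2 fold change of more than 1 in either direction together with an adjusted p under 0.05, from the quasi-likelihood test of edgeR and the Benjamini-Hochberg method over all genes. By this rule 43.2% of all tested genes were called with CoCl2, 19.9% higher and 23.4% lower. MCL1, BBC3, PMAIP1 and BCL2L11 were the members that rose, and BCL2 and BAX those that fell. Under scaling by library size alone 2 members rose (PMAIP1 and BCL2L11) and 3 fell (BCL2, BAX and BIK), and 1833 genes were called higher and 5839 lower, in place of 3167 and 3724. With OD, 2 members rose, BBC3 and PMAIP1, and none fell by edgeR or by DESeq2, where 13.3% of all genes were called, 9.09% higher and 4.16% lower. At an adjusted p under 0.05 without regard to the fold, 6 members passed with OD, 4 higher and 2 lower, against 65.6% of all genes (32.3% and 33.3%), and 9 passed with CoCl2, 5 higher and 4 lower, against 83.2% (40.4% and 42.8%). The libraries of the compared groups did not overlap for 9 members with CoCl2 and 6 with OD, where the shares over all genes were 83.4% and 68%. Regardless of sign, the log2 fold change of the median member was 1.38 in CoCl2 cells, beside 0.865 over all genes, and 0.321 in OD cells, beside 0.38. Both treatments are compared with the same control libraries. In bulk RNA, fewer cells with a transcript and less of it per cell cannot be told apart.

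**Figure D1:**
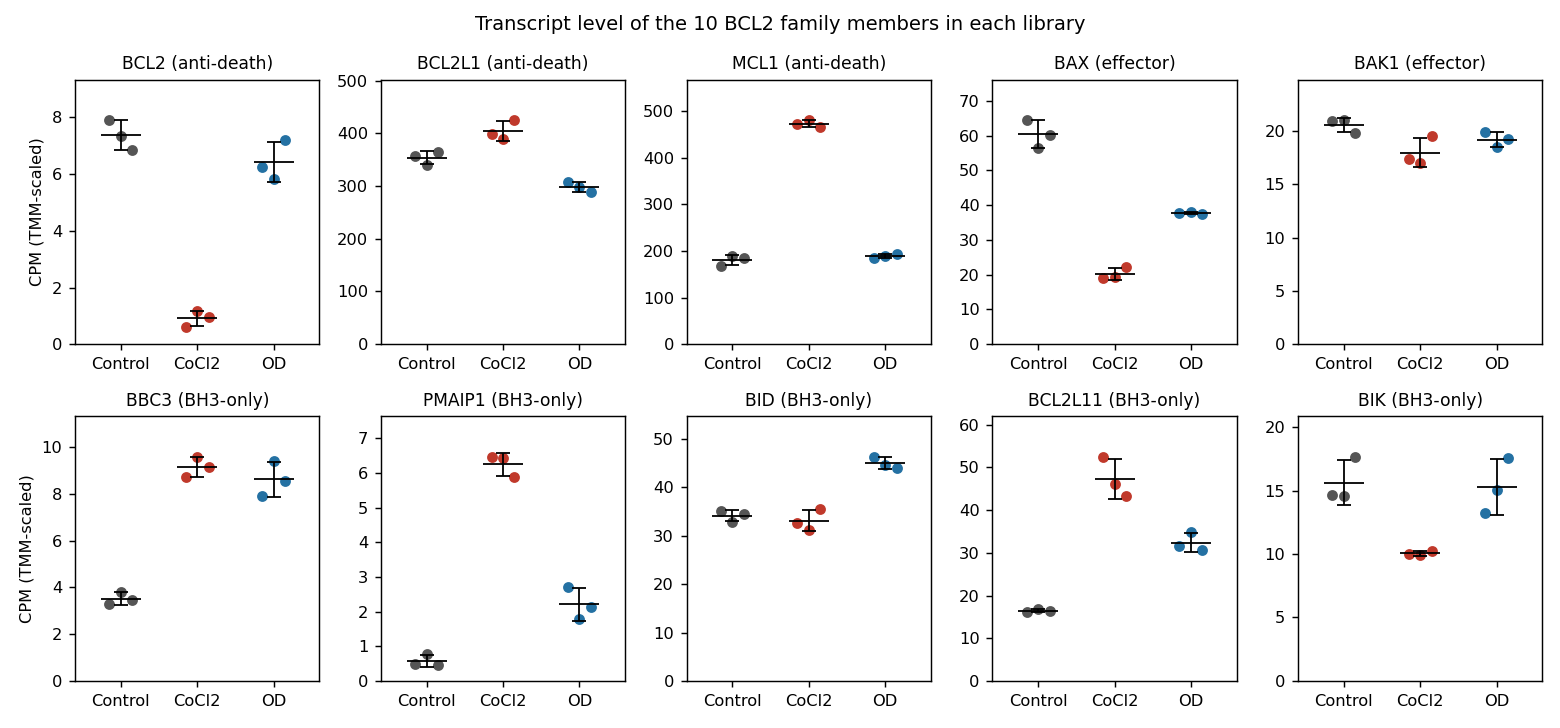
Level of each member in CPM (vertical axis, from 0) in the 3 libraries of each condition, 1 point per library, with the mean as a wide line and the SD as error bars. With CoCl2, BCL2 and BAX sit below all other libraries and MCL1, PMAIP1 and BCL2L11 above them, while BBC3 is about equally high with both treatments.

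Among the protective members, BCL2 changed most with CoCl2. BCL2 encodes the founding member of the family and occupies bases 63123346 to 63320128 of GRCh38 chromosome 18 (minus strand). It had 147, 150 and 122 counts in the control libraries, 10, 15 and 18 with CoCl2 and 138, 131 and 135 with OD. These counts correspond to 7.37 ± 0.533 CPM (SD, n = 3), 0.909 ± 0.271 and 6.42 ± 0.700. All CoCl2 libraries lay far below the others, whereas the control and OD libraries overlapped. CoCl2 gave a log2 fold change of -3.03 (standard error, SE, 0.190, edgeR adjusted p = 8.31e-23), and only 1.54% of all tested genes had a lower one. With OD it was -0.21 (SE 0.116, edgeR adjusted p = 0.114), with a 95% interval from -0.434 to 0.022. The direct comparison gave a log2 difference of CoCl2 from OD of -2.83 (SE 0.193, edgeR adjusted p = 5.15e-21).

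MCL1, a short-lived protective protein that must be made continuously, moved the other way. It occupies bases 150560895 to 150579738 of chromosome 1 (minus strand), and ADAMTSL4 and ADAMTSL4-AS1 overlap 5.27% of its exonic bases. Its level was 168, 188 and 185 CPM in the control libraries, 472, 481 and 466 with CoCl2 and 185, 189 and 194 with OD. The 3 CoCl2 libraries stood above the other 6, which overlapped each other. For CoCl2 the log2 fold change came to 1.39 (SE 0.042, edgeR adjusted p = 2.86e-39) and in OD cells it was 0.07 (SE 0.042, adjusted p = 0.167), the latter with a 95% interval from -0.017 to 0.149. Under scaling by library size alone the rise with CoCl2 was 0.88, short of the fold threshold.

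BCL2L1, which gives rise to the protective BCL-XL and to a short death-promoting splice form that gene counts cannot separate, had the highest level per kilobase of exon of the 10 members in every condition, whereas in plain CPM the CoCl2 libraries had more MCL1. It occupies bases 31664452 to 31723989 of chromosome 20 (minus strand). Control libraries had 356, 340.5 and 364 CPM, CoCl2 libraries 399, 388 and 425, and OD libraries 308, 299 and 289. The 3 conditions did not overlap, yet the distances were small. In CoCl2 cells the log2 fold change was 0.19 (SE 0.041, edgeR adjusted p = 2.2e-05) and in OD cells it was -0.24 (SE 0.041, adjusted p = 4.88e-07), and the sign with CoCl2 turned to -0.31 under scaling by library size alone. The antisense gene ABALON shares 41.3% of its exonic bases, but had only 93 to 135 counts per library against 5016 to 8105 for BCL2L1, and its part in the level of BCL2L1 was not tested.

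Per kilobase of exon, MCL1 and BCL2L1 made up nearly the whole transcript level of the protective members. BCL2L1 took 74.0% ± 1.5 (SD, n = 3) of the sum of the 3 genes in control, 55.8% ± 1.53 in CoCl2 and 69.7% ± 1.15 in OD cells. MCL1 took 25.5% ± 1.51, 44.1% ± 1.53 and 29.8% ± 1.10 in the same order. BCL2 took 0.514% ± 0.0471, 0.0418% ± 0.0127 and 0.499% ± 0.0599. The fall of BCL2 was thus that of the least abundant of these 3 transcripts. Protective genes outside the members, such as BCL2L2, are not in this sum. The CoCl2 libraries (42.5% to 45.5%) and the other 6 (24.0% to 30.9%) were apart in the share of MCL1. These shares are descriptions without a test and depend on the gene lengths used.

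Of the effectors, BAX fell with CoCl2 and BAK1 was not called. BAX occupies bases 48954815 to 48961798 of chromosome 19 (plus strand). Its level was 64.5, 56.5 and 60.2 CPM in the control libraries, 19.1, 19.2 and 22.3 with CoCl2 and 37.6, 37.9 and 37.4 with OD. The conditions were fully separated, with OD between control and CoCl2. CoCl2 gave a log2 fold change of -1.57 (SE 0.066, edgeR adjusted p = 1.78e-31). With OD it was -0.68 (SE 0.058, edgeR adjusted p = 2.8e-16), below the fold threshold but lower than in 89.2% of all tested genes. The direct log2 difference of CoCl2 from OD was -0.89 (SE 0.069, edgeR adjusted p = 1.69e-18), also short of the fold threshold. It passed that threshold with upper-quartile factors and with library size alone, at -1.02 and -1.43.

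The sequence before the RefSeq start of BAX (GRCh38.p14, plus strand, chr19:48954625-48954814) is shown because it is crowded with the E-box CACGTG, the letters bound by MYC and related factors, in capitals. The printed part ends where the first exon in the GENCODE annotation begins.
BAX: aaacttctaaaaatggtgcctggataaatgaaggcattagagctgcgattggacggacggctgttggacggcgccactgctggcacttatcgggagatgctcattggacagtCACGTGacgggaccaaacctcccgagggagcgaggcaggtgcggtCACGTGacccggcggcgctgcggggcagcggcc
The printed 190 bases hold 2 matches, and the 60 bases between them and the start hold another 2. Among 35116 windows of 250 bases before RefSeq starts, 6.34% held at least 1 such match and only 5, that of BAX included, held 4. Each CACGTG also contains ACGTG, the core of the hypoxia response element, on both strands. MYC itself had 106 CPM in control, 61.4 in CoCl2 and 83.9 in OD cells on average. Its log2 fold changes were -0.78 and -0.34, with adjusted p of 1.37e-20 and 5.23e-08 by edgeR, both below the fold threshold. A match is a description and does not say which factor binds there.

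BAK1, the other effector, occupies bases 33572547 to 33580293 of chromosome 6 (minus strand). It had 20.9, 21.0 and 19.8 CPM in the control libraries, 17.4, 17.02 and 19.6 with CoCl2 and 19.9, 18.5 and 19.2 with OD. The CoCl2 libraries were lower than the control libraries by less than 1 CPM at the nearest pair, and those of OD overlapped both. For CoCl2 the log2 fold change came to -0.19 (SE 0.078, edgeR adjusted p = 0.0241) and in OD cells it was -0.10 (SE 0.074, adjusted p = 0.227), with a 95% interval from -0.246 to 0.044 for OD. Per kilobase BAX was 23.3 ± 1.53 CPM (SD, n = 3) and BAK1 9.31 ± 0.309 in control cells, whereas with CoCl2 they were 7.81 ± 0.702 and 8.13 ± 0.623 and overlapped.

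PMAIP1 had the largest fold rise of the 10 members with either treatment. It encodes NOXA, a small BH3-only protein, and occupies bases 59899996 to 59904305 of chromosome 18 (plus strand). The counts were 9, 16 and 8 in the control libraries, 104, 83 and 112 with CoCl2 and 60, 40 and 40 with OD. Control cells thus had 0.572 ± 0.184 CPM (SD, n = 3), CoCl2 cells 6.26 ± 0.332 and OD cells 2.21 ± 0.480, and the 3 conditions did not overlap. In CoCl2 cells the log2 fold change was 3.41 (SE 0.218, edgeR adjusted p = 2.18e-22) and in OD cells it was 1.92 (SE 0.261, adjusted p = 2.37e-09). Only 1.78% of all tested genes had a higher log2 fold change with CoCl2 and 2.45% with OD. CoCl2 exceeded OD by 1.49 on the log2 scale (SE 0.160, edgeR adjusted p = 6.42e-13), or by 0.95 under scaling by library size alone.

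The 250 bases before the start of PMAIP1 (GRCh38.p14, plus strand, chr18:59899746-59899995) are shown with the CRE half-site TGACG in capitals, which reads CGTCA on the printed strand. CRE sites are the letters bound by factors of the ATF and CREB families, and ATF3 and ATF4 are described with the pathway genes.
PMAIP1: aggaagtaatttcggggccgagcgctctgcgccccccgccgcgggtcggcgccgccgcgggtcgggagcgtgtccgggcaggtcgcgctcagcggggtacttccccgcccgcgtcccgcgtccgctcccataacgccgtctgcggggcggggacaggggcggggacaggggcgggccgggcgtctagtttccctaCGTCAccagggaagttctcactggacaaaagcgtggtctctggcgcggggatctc
The half-site lies from base -55 to -51 relative to the start, and 21.2% of all windows held at least 1. The same half-site occurred in the windows of BAX (from -134 to -130, overlapping an E-box), BCL2 and BCL2L1. Its part in the level of any member was not tested. GCGTG, another form of the hypoxia response core, occurred 2 times, and 10.2% of all windows held as many.

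BBC3 rose with both treatments, by similar amounts. It encodes PUMA, a BH3-only protein that binds all the protective members, and occupies bases 47220822 to 47232766 of chromosome 19 (minus strand). Its level was 3.28, 3.82 and 3.48 CPM in the control libraries, 8.71, 9.60 and 9.18 with CoCl2 and 7.90, 9.41 and 8.57 with OD. All treated libraries were above all control libraries, and those of the treatments overlapped. CoCl2 gave a log2 fold change of 1.37 (SE 0.128, edgeR adjusted p = 3.27e-15) and in OD cells it was 1.29 (SE 0.123, adjusted p = 2.57e-14). Under scaling by library size alone the rise with CoCl2 was 0.86, short of the fold threshold, and the call with OD was lost when glmTreat tested against a log2 fold change of 1. The direct log2 difference of CoCl2 from OD was 0.08 (adjusted p = 0.469 by edgeR), with a 95% interval from -0.125 to 0.288, and it turned to -0.05 with upper-quartile factors and to -0.46 with library size alone.

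The bases before the RefSeq start of BBC3 outside the first GENCODE exon (GRCh38.p14, minus strand, chr19:47232767-47232917, printed 5′ to 3′ along the gene) hold the only E-box of that window, in capitals, and are shown for comparison with BAX, which fell with CoCl2 while BBC3 rose.
BBC3: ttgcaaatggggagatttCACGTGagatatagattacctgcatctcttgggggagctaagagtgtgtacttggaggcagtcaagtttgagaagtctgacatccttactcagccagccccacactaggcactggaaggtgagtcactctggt

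BCL2L11 rose with CoCl2 and lay just under the fold threshold with OD. It encodes BIM, a BH3-only activator of the effectors, and occupies bases 111119378 to 111168444 of chromosome 2 (plus strand). The level was 16.1, 16.9 and 16.4 CPM in the control libraries, 52.5, 46.1 and 43.4 with CoCl2 and 31.6, 34.8 and 30.6 with OD. The 3 conditions did not overlap, and OD lay between the other groups. For CoCl2 the log2 fold change came to 1.52 (SE 0.072, edgeR adjusted p = 7.05e-29) and in OD cells it was 0.98 (SE 0.073, adjusted p = 1.15e-18). With OD the fold threshold was passed without OD replicate 3 and with library size alone, at 1.02 each, with upper-quartile factors at 1.01 and with at least 10 counts in every library at 1.00. CoCl2 exceeded OD by 0.54 on the log2 scale (SE 0.064, edgeR adjusted p = 1.66e-11), a difference that was -0.0026 under scaling by library size alone. The antisense gene MIR4435-2HG shares 10.8% of the exonic bases of BCL2L11, and it had 204 to 235 counts per control library, 431 to 636 per CoCl2 library and 182 to 259 per OD library, beside 292 to 344, 596 to 844 and 575 to 784 for BCL2L11. The strand setting of the counting is not given in the sources used here, and the part of these reads in the rise with CoCl2 was not tested.

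The 250 bases before the RefSeq start of BCL2L11 (GRCh38.p14, plus strand, chr2:111120664-111120913), which lie inside the annotated gene because GENCODE has an earlier start, are shown with a forkhead site, GTAAACA, in capitals. FOXO factors, which bind such letters, are known regulators of this gene.
BCL2L11: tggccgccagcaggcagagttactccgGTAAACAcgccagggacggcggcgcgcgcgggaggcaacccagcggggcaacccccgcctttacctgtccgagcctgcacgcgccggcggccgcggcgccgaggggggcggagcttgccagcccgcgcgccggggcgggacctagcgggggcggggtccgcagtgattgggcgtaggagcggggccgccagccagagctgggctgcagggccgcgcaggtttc
The site lies from base -223 to -217, where it overlaps a GCGTG on the other strand, and 2.98% of all windows held GTAAACA. FOXO1 rose with CoCl2, with a log2 fold change of 1.61 (SE 0.085, edgeR adjusted p = 1.66e-26), and had 0.81 with OD. FOXO3 had 0.53 and 0.96, each below the fold threshold with an adjusted p of at most 6.29e-11 by edgeR. Another gene shares 22.7% of the exonic bases of FOXO1. Whether this site or these factors have a part in the level of BCL2L11 was not tested.

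BID and BIK, the remaining BH3-only members, were called with neither treatment. BID encodes a protein that caspase-8 cleaves to link death receptors with mitochondria, and it occupies bases 17734138 to 17774770 of chromosome 22 (minus strand). Control libraries had 35.1, 32.9 and 34.4 CPM, CoCl2 libraries 32.7, 31.1 and 35.5, and OD libraries 46.3, 44.6 and 43.9. The OD libraries stood above the other 6, which overlapped. For BID, OD gave a log2 fold change of 0.40 (SE 0.059, edgeR adjusted p = 2.33e-08) while CoCl2 gave -0.03 (adjusted p = 0.617, 95% interval from -0.159 to 0.09), the latter turning to 0.02 with RLE factors. BIK, a BH3-only protein of the endoplasmic reticulum, occupies bases 43110750 to 43129712 of the same chromosome (plus strand). It had 14.6, 14.6 and 17.7 CPM in the control libraries, 10.0, 9.91 and 10.2 with CoCl2 and 13.2, 15.1 and 17.6 with OD. The CoCl2 libraries lay below all others, with a log2 fold change of -0.63 (SE 0.0997, edgeR adjusted p = 6.88e-08), which passed the fold threshold with library size alone, at -1.14. With OD the log2 fold change of BIK was -0.04 (adjusted p = 0.738 by edgeR, 95% interval from -0.208 to 0.137), and its sign changed to 0.0048 with library size alone.

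**Figure D2:**
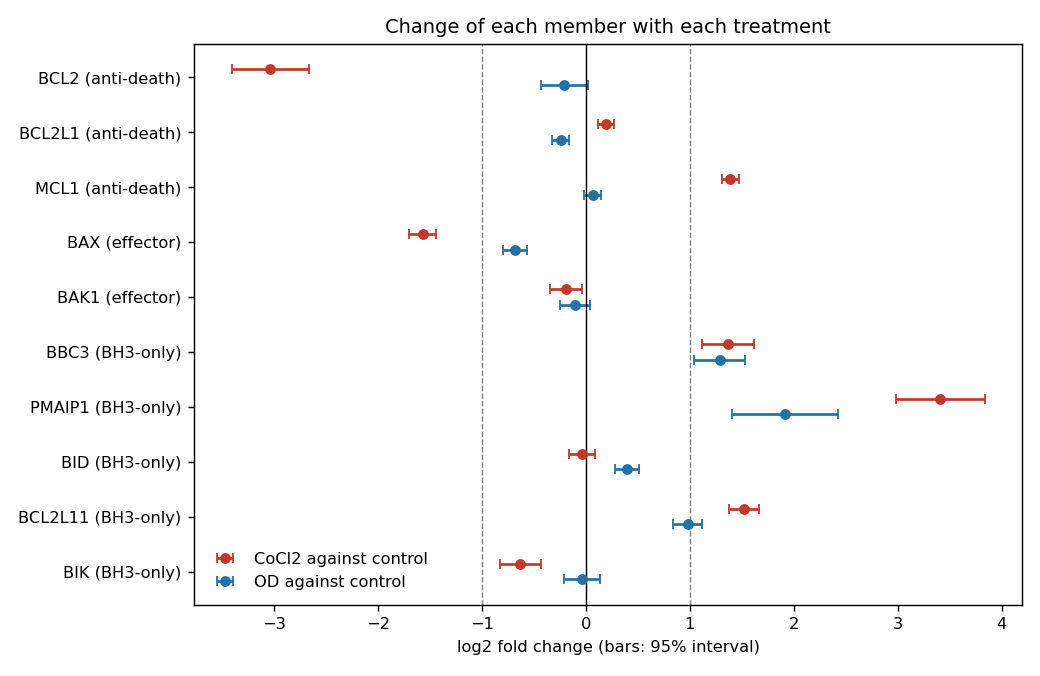
Log2 fold change of each member (horizontal axis) with CoCl2 and with OD against the same control libraries, with bars for the 95% interval from the SE and dashed lines at the threshold of 1 in size. BCL2 and BAX are left of -1 with CoCl2, PMAIP1 is right of 1 with both treatments, and BCL2L1 with CoCl2 and BIK with OD change sign under scaling by library size alone, as does BID with CoCl2 when RLE factors are used.

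In the direct comparison of CoCl2 with OD, 3 members were called, MCL1 and PMAIP1 higher and BCL2 lower with CoCl2, where 41.3% of all genes were called, 17.5% higher and 23.8% lower. The log2 difference of MCL1 was 1.32 (SE 0.042, edgeR adjusted p = 3.21e-38). At an adjusted p under 0.05 alone, 8 members differed between the treatments, against 83.5% of all genes (40.2% higher and 43.2% lower), and for 8 the libraries did not overlap, against 83.8%. Besides the called members these were BCL2L1 and BCL2L11, which were higher with CoCl2, and BAX, BID and BIK, which were lower, with log2 differences between 0.44 and 0.54 for the former and between -0.89 and -0.43 for the latter. BBC3 and BAK1 did not pass, and BAK1 had a difference of -0.09 with a 95% interval from -0.239 to 0.066. Under scaling by library size alone the called members were BCL2, BAX and BIK, each lower with CoCl2, and MCL1 and PMAIP1 had log2 differences of 0.78 and 0.95.

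To compare the members with each other, CPM were divided by the kilobases of exon of each gene. In control cells the order was BCL2L1 with 84.3 ± 2.88 CPM per kilobase (SD, n = 3), MCL1 with 29.0 ± 1.74, BAX with 23.3 ± 1.53, BIK with 16.4 ± 1.87, BAK1 with 9.31 ± 0.309, BID with 7.72 ± 0.260, BCL2L11 with 2.44 ± 0.0581, BBC3 with 1.11 ± 0.0866, BCL2 with 0.584 ± 0.0423 and PMAIP1 with 0.262 ± 0.0843. No neighbours in this order overlapped. With CoCl2, BAK1, BAX, BID and BCL2L11 lay between 7.02 and 8.13 CPM per kilobase and each overlapped the next, BBC3 and PMAIP1 overlapped at 2.88 and 2.86, and BCL2 came last with 0.0721. With OD, BIK and BAX overlapped, at 16.1 and 14.5 CPM per kilobase, and BID, at 10.2, stood above BAK1, at 8.68. The rise of PMAIP1 thus left it among the less abundant members. With the longest annotated transcript as the length, BAX in control cells had 44.5 ± 2.92 CPM per kilobase, above 39.7 ± 2.38 for MCL1, BID stood above BAK1 in all 3 conditions, and in CoCl2 cells BAX came next after MCL1, at 14.9 ± 1.34. The order of BAX, MCL1, BID, BIK, BAK1 and BCL2L11 thus rests on the length used, whereas BCL2L1 came first and BBC3, PMAIP1 and BCL2 took the last places with either length.

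**Figure D3:**
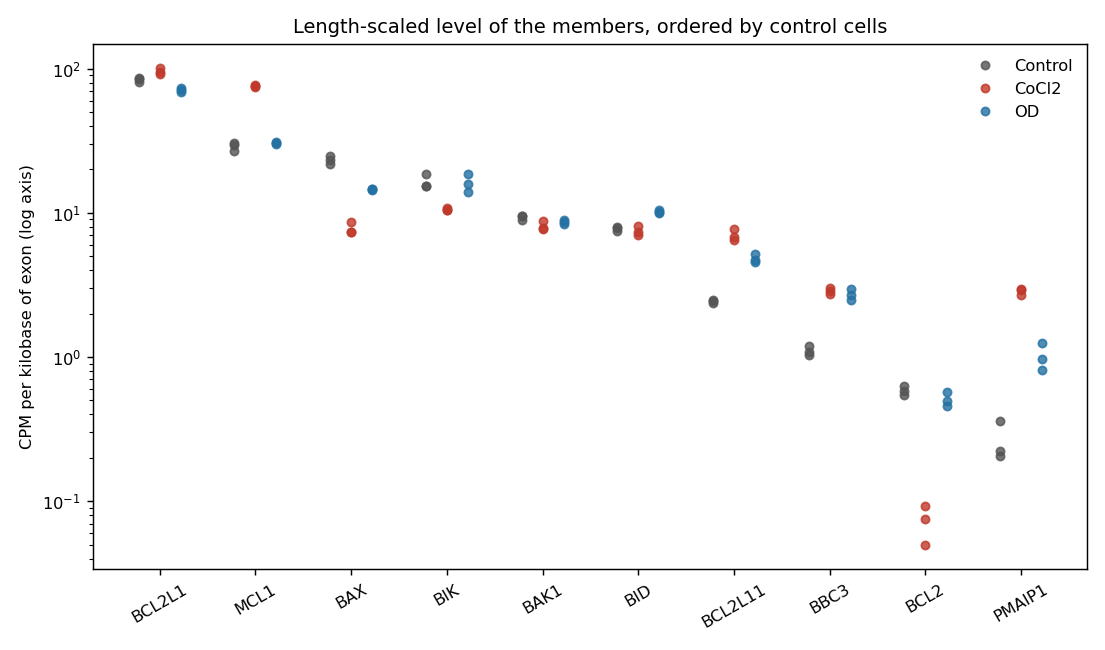
Level of each member in CPM per kilobase of exon (log axis) in each library, with members ordered by their level in control cells. BCL2L1 and MCL1 are highest in all 3 conditions, BAX is near BAK1 and BID with CoCl2 only, and PMAIP1 is last in control cells and above BCL2 in the treated cells.

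The promoter windows were searched on both strands for the hypoxia response core as ACGTG or as GCGTG, for the E-box CACGTG, for the CRE half-site TGACG and the full CRE, for the forkhead site GTAAACA, for the C/EBP-ATF site and for the heat shock element. The full CRE is TGACGTCA, the C/EBP-ATF site TGATGCAA and the heat shock element GAANNTTC. Every E-box contains a core ACGTG, and every full CRE a half-site. RefSeq windows were found for 8 members, 13 windows in all, and MCL1 and BIK had no entry. ACGTG occurred in windows of BAX, BBC3 and BID, and 18.5% of all windows held it. The E-box CACGTG occurred in windows of the same members, including BID, which was called with neither treatment. GCGTG occurred in windows of BCL2L1, PMAIP1, BID and BCL2L11, against 32.2% of all windows. All 250 bases of the BCL2L1 window with this match are exonic for BCL2L1 in GENCODE. The window of BCL2, which lies wholly inside an exon of a longer GENCODE transcript, held neither ACGTG nor GCGTG and had 1 match to TGACG. BAK1 had 1 match to the heat shock element, which 5.78% of all windows held. No member window held a full CRE or a C/EBP-ATF site, which occurred in 1.65% and 0.772% of all windows.

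**Figure D4:**
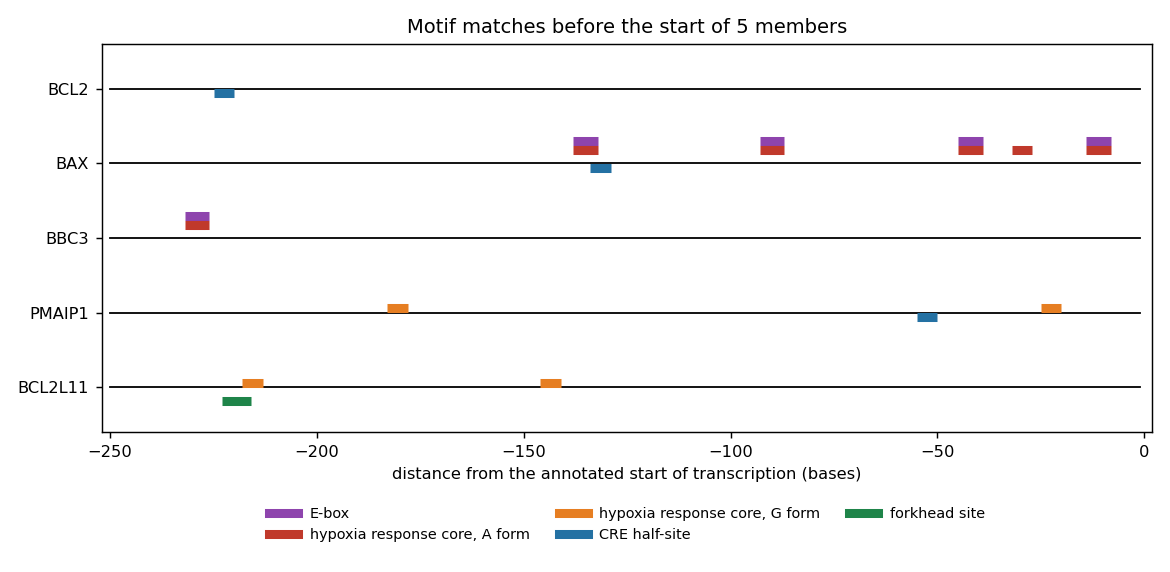
Position of motif matches in the 250 bases before the RefSeq start (horizontal axis, bases from the start) of the 5 called members with a window, 1 row per gene and 1 colour per motif. BAX carries 4 E-boxes, BBC3 carries 1 and the other 3 genes none, and the forkhead site of BCL2L11 lies near the far end of its window.

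Genes that act around the members were described from lists written from general knowledge, and their medians with CoCl2 moved down together with that of all genes under scaling by library size alone. Of 11 tested further BCL2 family genes, 3 rose and 2 fell with CoCl2, and 3 rose with OD, around median log2 fold changes of 0.449 and 0.094, beside -0.049 and -0.01 over all genes. BNIP3 and BNIP3L, which mark mitochondria for removal and are known hypoxia genes, rose most, with log2 fold changes of 3.77 and 4.24 with CoCl2 and 3.98 and 3.57 with OD. BOK, a relative of BAX and BAK1, fell from 33.5 CPM to 5.86 with CoCl2 and had 35.4 with OD, and the difference between the treatments was -2.59 on the log2 scale (SE 0.092, edgeR adjusted p = 2.03e-35). BCL2L10, a protective member, had 33 to 40 counts per library in control cells and 0 to 7 with CoCl2. BCL2L15, with at most 23 counts per library, was the remaining call with each treatment, and that with OD was lost with DESeq2. BCL2L2 (BCL-w), protective as well, had 24.3 CPM in control, 12.6 in CoCl2 and 38.0 in OD cells, and was lower with CoCl2 than with OD by 1.59 on the log2 scale, although 24.8% of its exonic bases are shared with other genes. BCL2A1 and HRK did not pass the filter.

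Downstream of BAX and BAK1, 4 of 9 apoptosome and mitochondrial release genes rose with CoCl2 and 1 fell, around a median of 0.555, and 1 rose with OD, around -0.06. ENDOG was the gene that fell, with a log2 fold change of -1.54 and 16 to 31 counts per CoCl2 library. HTRA2 rose by 1.04 with CoCl2. Other genes share 40.1% of the exonic bases of ENDOG and 32.3% of those of HTRA2. Under scaling by library size alone only VDAC2 rose and 2 genes fell with CoCl2. APAF1, the scaffold on which caspase-9 is activated, rose with both, with log2 fold changes of 1.32 and 1.11, the first of which was 0.81 under scaling by library size alone. VDAC2, a channel of the outer membrane that holds BAK1, rose by 1.54 with CoCl2, and DIABLO, an antagonist of the inhibitors of apoptosis, by 1.31. Other genes share 32.3% of the exonic bases of DIABLO. Of 7 caspases, CASP10 rose with CoCl2, with a log2 fold change of 1.46 or 0.95 under scaling by library size alone. None of the 7 was called with OD by edgeR or DESeq2, although 5 had an unadjusted p under 0.05. The same number passed an adjusted p under 0.05 with OD, beside 65.6% of all genes, and the medians were 0.388 and 0.227. Of 6 inhibitors of apoptosis, 1 rose and 1 fell with CoCl2 and 2 rose with OD. Those that rose with OD were BIRC3 and BIRC7, and BIRC7 had only 1 to 6 counts per control library and 10 to 13 per OD library. XIAP rose with CoCl2, with 1.12, or 0.61 under scaling by library size alone. BIRC3, an inhibitor that NF-kB induces, fell with CoCl2 and rose with OD, with log2 fold changes of -1.24 and 1.36 and a difference between them of -2.61 (SE 0.104, edgeR adjusted p = 3.91e-22). The medians of that list were 0.183 and 0.249. Of 8 tested death receptor genes, 3 rose with CoCl2, at medians of 0.562 with CoCl2 and 0.271 with OD. None was called with OD by edgeR with TMM factors or by DESeq2, although 7 had an unadjusted p under 0.05. As many passed an adjusted p under 0.05 with OD, beside 65.6% of all genes. TNFRSF10D lay just under the fold threshold with OD, at 0.98. With upper-quartile factors and with library size alone, 1 gene of the list was called higher with OD. The genes that rose with CoCl2 were the TRAIL receptors TNFRSF10A and TNFRSF10B and the decoy receptor TNFRSF10D, with log2 fold changes of 1.25, 1.79 and 2.16. TNFRSF10A had 0.74 with CoCl2 under scaling by library size alone, when 2 genes of the list, FADD and TRADD, fell.

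Among 11 transcription factors linked to BH3-only genes, 5 rose and 2 fell with CoCl2 and 1 rose with OD, around medians of 0.877 and 0.519. ATF3, a stress-induced factor, rose with both, with log2 fold changes of 2.46 and 1.90. DDIT3 (CHOP) and JUN rose with CoCl2, with 1.47 and 1.72, or 0.96 for DDIT3 under scaling by library size alone, and ATF4 had 0.88 and 0.52. TP63 had 0 or 1 count in each control and OD library and 33 to 42 with CoCl2, at least 15.1-fold higher than a floor of 3 counts per library. TP73 and E2F1 fell with CoCl2, with -2.62 and -1.68, and had 0.89 and 0.18 with OD. Genes that set the half-life of the MCL1 protein were also measured. Of 7, 3 rose and 1 fell with CoCl2, around a median of 0.965. None was called with OD by edgeR or DESeq2, around a median of 0.017, although 3 had an unadjusted p under 0.05. As many passed an adjusted p under 0.05 with OD, against 65.6% of all genes. FBXW7, which directs MCL1 to degradation, rose with CoCl2 by 1.74 on the log2 scale, USP9X, which removes ubiquitin from it, by 1.20, and the phosphatase subunit PPP2CA by 1.16, while TRIM17, another ligase, fell, with -1.97. Under scaling by library size alone FBXW7 alone rose, with USP9X at 0.70 and PPP2CA at 0.65. Other genes share 27.65% of the exonic bases of PPP2CA.

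**Figure D5:**
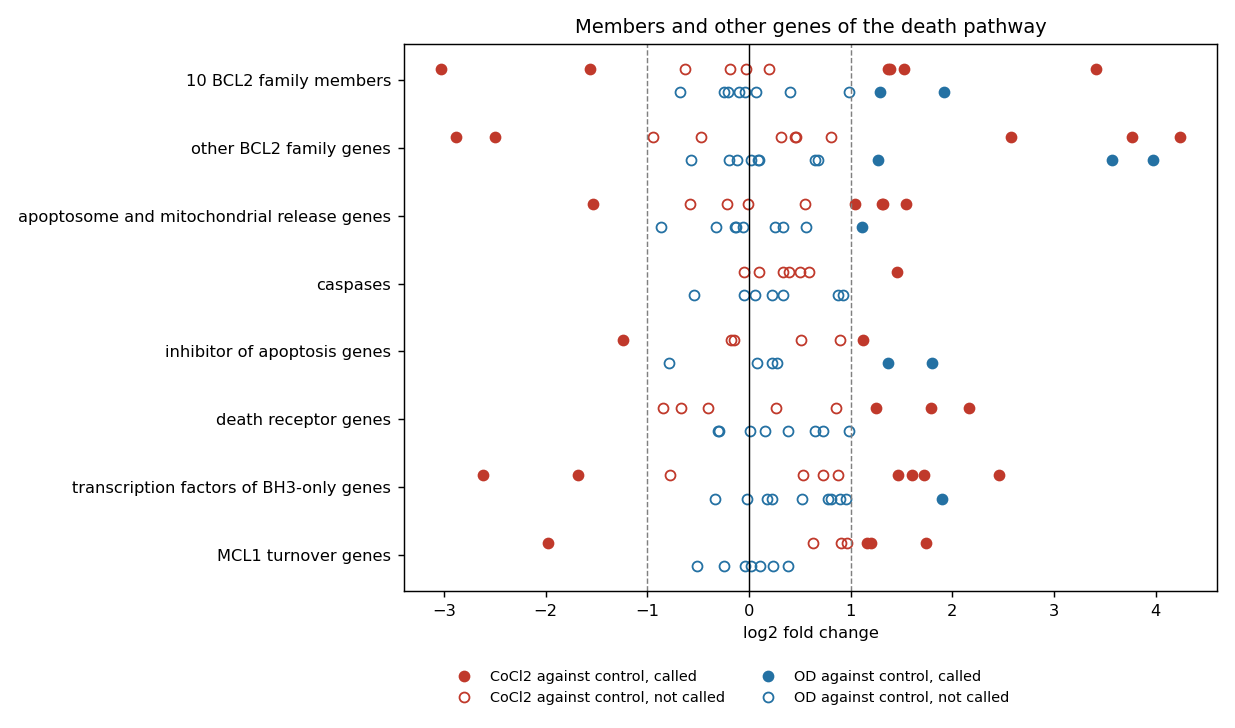
Log2 fold change (horizontal axis) of the members and of the tested genes of the lists described with CoCl2 and with OD against control, 1 point per gene, filled where called, with dashed lines at the threshold of 1 in size. TP63 is not drawn, because the control and OD libraries had at most 1 count each. BNIP3 and BNIP3L are far right with both treatments, and most OD points lie between the dashed lines.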

How the data were processed

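Single-end mRNA libraries of uCaco-2 cells were sequenced. After trimming with cutadapt 2.10, the authors mapped reads to GRCh38.p13 with STAR 2.7.5b, counted them on GENCODE release 34 genes and deposited raw counts per gene symbol. The counting tool and its strand setting are not given in the sources used here. All 9 columns were used and 0 were left out. TMM factors were computed in R 4.3.3 with edgeR 4.0.16, which also filtered genes and fitted a robust quasi-likelihood model over the 9 libraries. Standard errors are the log2 fold change over the root of the F statistic, and 95% intervals follow from them. An exact permutation test of a single gene cannot go below p = 0.1 with 3 libraries against 3. Every pair of replicates differed beyond sampling noise (chi-square per degree of freedom from 1.74 to 3.05). Depth limits genes near 10 counts, such as PMAIP1 in control cells. Intervals cover no PCR copying. The model was tested on simulated counts with far fewer changed genes than here, so that test does not address the scaling. Coordinates and lengths came from GENCODE release 44 on GRCh38, and promoter sequences from RefSeq (GRCh38.p14).

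The named genes are the 10 members, the called genes with the largest changes of each list (at most 4 per comparison), the listed transcription factors and, for each called member, the gene with the most similar profile. BCL2L15, BCL2L2 and the genes that overlap members were named after their values were seen. Some items are not reported here. The members, lists and motifs were chosen with earlier results of these data known. Alternatives were upper-quartile or RLE factors, scaling by library size alone, other count filters, DESeq2 1.42.0 on 9 or 6 libraries, edgeR on 6 libraries, the replicate number as a block, other thresholds, thinned counts and each library left out in turn.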

Additional observations from a re-analysis of the deposited data

How the results depend on the processing

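The number of members called stayed within 1.5 times the value given for all alternatives except 3. With the adjusted p alone it was 6 with OD and 8 between the treatments, and with glmTreat against a log2 fold change of 1 it was 1 with OD, where BBC3 was lost. Leaving out each library in turn gave 6 called members with CoCl2, 2 to 3 with OD and 3 between the treatments. The number of all called genes was 13260 with CoCl2, 10466 with OD and 13311 between the treatments with the adjusted p alone, and 1134 and 965 with OD for at least 10 counts in every library and for glmTreat. PMAIP1 could not be tested with at least 10 counts in every library. With library size alone, 1833 of 7672 genes called with CoCl2 were higher, in place of 3167 of 6891. Some members changed sign. With library size alone BCL2L1 had -0.31 with CoCl2 and -0.11 in the direct comparison, where BBC3 had -0.46 and BCL2L11 -0.0026, and BIK had 0.0048 with OD. BBC3 had -0.05 with upper-quartile factors in the direct comparison. BID with CoCl2 had 0.0155 with RLE factors and -0.091 to 0.0102 with a library left out, the latter without CoCl2 replicate 2. BIK with OD had 0.0031 with thinned counts, 0.0563 without control replicate 3 and, over all left-out libraries, values from -0.136 to 0.0613, the latter without OD replicate 1. Of these, only the values of library size alone other than those of BIK and BCL2L11 passed an adjusted p under 0.05, and the cause was not tested. With the longest transcript as gene length, the share of BCL2 was 0.662% in control cells and 0.642% with OD, and with OD that of BCL2L1 was 68.4% and that of MCL1 31.0%. Without division by length, BCL2 had 1.36%, 0.103% and 1.3% in control, CoCl2 and OD cells, BCL2L1 65.3%, 46.0% and 60.4%, and MCL1 33.3%, 53.9% and 38.3%. Replicate numbers share no stated animal, day or batch. After the mean of each condition was subtracted from log2 CPM, same-numbered libraries correlated at most at 0.0376. The numbers were therefore not treated as pairs. With the replicate number as a block, 6, 2 and 3 members and 6901, 2115 and 6568 genes were called with CoCl2, with OD and between the treatments. By the same deviations from the condition means, 6 of 9 libraries correlated best, among libraries of other conditions, with one of their own number.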

Other observations

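For each member called with CoCl2 or OD, the tested gene with the most similar profile was the 1 with the highest Pearson correlation of log2 CPM over the 9 libraries, given as a description, since the libraries share 3 conditions and their depth. BBC3 was closest to TP53INP1 (r = 0.994), which averaged 4.80 CPM in control cells and rose to about the same level with both treatments, and only 8 genes had an r above 0.99 with BBC3. PMAIP1 was closest to ZBTB21 (r = 0.995), with 22.8, 47.9 and 35.2 CPM, and 14 genes were above 0.99. BCL2L11 was closest to MKNK2 (r = 0.998), with 31 genes above 0.99. For BAX the closest gene was HENMT1 (r = 0.998), with log2 fold changes of -1.61 with CoCl2 and -0.66 with OD, and 153 genes were above 0.99. For BCL2 it was PECR (r = 0.999), with 107 genes above 0.99, and for MCL1 it was SKP1 (r = 0.999), with 539.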
